A study of Drosophila melanogaster with 12 samples.

Results

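RNA-seq was carried out in Drosophila S2 cells, an established cell line, that made a BRM protein with an inactive ATPase, and these K804R cells were compared with control cells. The K804R cells were a stable line with a plasmid for recombinant BRM in which arginine replaces a lysine of the ATPase domain (K804R), treated with dsRNA against BRM (dsBRM). The control cells, for which the labels give an empty plasmid and the methods name no plasmid, received dsRNA against GFP (dsGFP), a sequence that flies lack. Each group had 2 biological replicates, so the comparison used 4 of the 8 RNA-seq libraries and of the 12 libraries of the series. The other RNA-seq libraries came from a line with recombinant wild-type BRM and dsBRM (WT cells, 2 libraries) and from cells with the same empty-plasmid label and dsBRM (BRM-depleted cells, 2 libraries). The dsRNA treatment lasted 48 h. In the recombinant lines the protein was expressed from the metallothionein promoter, switched on with copper sulfate for the final 24 h. Whether the cells without recombinant BRM received copper was not stated in the sources used here. The recombinant protein, the copper, the line itself and the dsRNA thus differed together between K804R and control cells, and their parts in a difference cannot be told apart. WT cells shared the dsRNA and the copper with K804R cells and differed from them in the recombinant protein and the line.

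BRM is the ATPase of the SWI/SNF complexes BAP and PBAP, which use the energy of ATP to slide or evict nucleosomes. The mutated lysine lies in the nucleotide-binding loop of the ATPase domain, a motif in which lysine contacts the phosphates of ATP, and its loss leaves a protein that can still join the complex but does not remodel. Metallothioneins are small cysteine-rich proteins that bind copper, zinc and cadmium, and their genes are switched on by the factor MTF-1 at metal response elements.

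The codon that the mutation replaces is shown as it stands in the reference genome, since the count table does not separate endogenous from recombinant brm reads. In Release 6 it lies within an exon of brm at 3L:15972986-15973047 on the minus strand, with the lysine codon in capitals. The residue of that number is this lysine in 3 of 6 annotated transcripts, which encode proteins of 1638 or 1658 residues.
brm: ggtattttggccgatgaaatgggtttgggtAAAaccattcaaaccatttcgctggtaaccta

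The promoters of 3 metallothionein genes are shown because the recombinant protein was driven by a promoter of this family and these genes had some of the largest rises. Each window holds the 250 bases before the annotated start, from the minus strand of 3R:9784371-9784620 for MtnA, the minus strand of 3R:20503747-20503996 for MtnB and the plus strand of 3R:20534712-20534961 for MtnD. Capitals mark matches to TGCNCNC, the core of the metal response element, on either strand. Each of the 3 windows held 4 matches, and the window of MtnE, which is transcribed away from MtnD across nearly the same bases, held the same number.
MtnA: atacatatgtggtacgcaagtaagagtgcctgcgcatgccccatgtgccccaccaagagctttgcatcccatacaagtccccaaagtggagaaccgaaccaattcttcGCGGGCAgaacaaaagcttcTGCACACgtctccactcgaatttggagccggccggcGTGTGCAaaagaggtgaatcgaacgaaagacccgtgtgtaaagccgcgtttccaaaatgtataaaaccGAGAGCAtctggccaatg
MtnB: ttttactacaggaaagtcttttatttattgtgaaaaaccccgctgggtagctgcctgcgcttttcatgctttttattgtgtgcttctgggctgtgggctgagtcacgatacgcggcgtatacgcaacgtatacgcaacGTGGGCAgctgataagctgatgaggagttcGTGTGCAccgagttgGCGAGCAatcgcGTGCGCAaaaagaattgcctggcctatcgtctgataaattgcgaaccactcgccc
MtnD: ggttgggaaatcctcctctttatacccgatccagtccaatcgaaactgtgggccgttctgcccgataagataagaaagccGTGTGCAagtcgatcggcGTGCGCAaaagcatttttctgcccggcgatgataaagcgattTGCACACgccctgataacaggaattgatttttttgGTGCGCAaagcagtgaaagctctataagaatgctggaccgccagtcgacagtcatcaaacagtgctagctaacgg

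Total counts per library were between 6600562 and 10287294, and 8165 of 12986 genes had enough counts to be tested. The correlation of log2 CPM between replicates was 0.984 in K804R cells, 0.970 in WT cells, 0.993 in BRM-depleted cells and 0.988 in control cells. All 13 hemocyte markers had counts, and their summed level was 18030 and 12130 CPM in K804R cells, against 11400 and 15490 CPM in control cells. S2 cells are of hemocyte type. CPM is the read count scaled to library size with TMM factors, and levels of different genes are not adjusted for length. Genes were called at an adjusted p under 0.05 from edgeR's quasi-likelihood test on all 8 libraries. Those p-values measure the spread between these cultures only. In bulk RNA, fewer cells of a type and less RNA per cell cannot be told apart.

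In K804R cells 518 genes rose and 339 fell against control cells, which is 6.34% and 4.15% of the genes tested, or 10.5% together. The median size of the change was 1.65 among the rises and 1.43 among the falls on the log2 scale. Median control levels were 12.8 CPM for the rises and 31.6 CPM for the falls, against 38.3 CPM for all genes tested. The genes that fell were longer, with a median gene length of 5436 bases, against 3144 bases for those that rose and 2729 bases for all genes tested. Separate libraries, K804R above control or below it without overlap, were found for 28.2% and 26.5% of all genes, so such separation alone is common with 2 libraries a group. When each of these 4 libraries was left out in turn, 139 of the 518 rises and 74 of the 339 falls were called in all 4 fits, and the number of calls was as low as 269, without control replicate 1. Genes called in all 4 of those fits are named below as stable. The genes nearest the threshold were CG7655 at an adjusted p of 0.0497 inside it and Cpr67Fa1 at 0.0502 outside it.

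**Figure D1:**
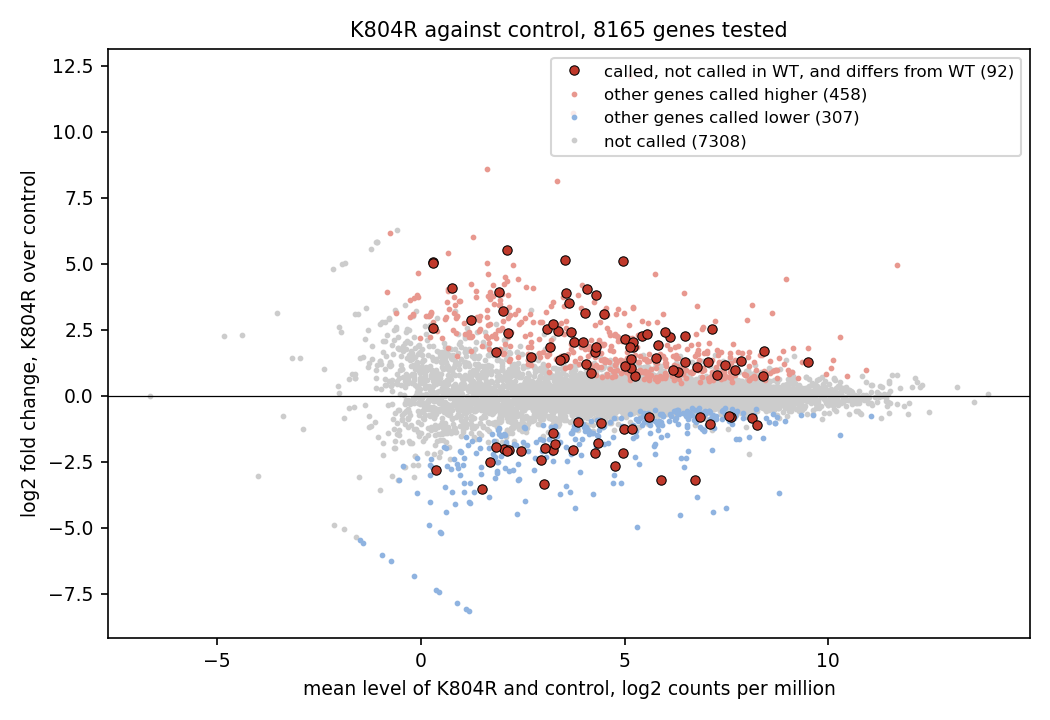
Each point is 1 of 8165 tested genes, with the mean of its K804R and control levels on the x axis (log2 CPM) and its K804R minus control difference on the y axis (log2). Point styles mark the 92 genes that also differ from WT cells and are not called there, the other rises, the other falls and the 7308 genes not called, and the highest point is MtnD at 12.12, with 0 counts in control cells.

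The brm gene itself stood at 2118 and 2005 CPM in K804R cells, 16630 and 24890 CPM in WT cells, 176 and 175 CPM in BRM-depleted cells, and 433 and 446 CPM in control cells. No 2 groups overlapped. K804R cells were above control cells by 2.23 ± 0.27 (log2, SE; n = 2 per group; edgeR adjusted p = 0.00231) and below WT cells by 3.33, a K804R minus WT difference of -3.33 ± 0.28 (edgeR adjusted p = 0.00126). Transcript levels of brm were therefore not matched between the lines, which bears on every comparison of K804R with WT cells below. None of the other 14 SWI/SNF subunit genes was called in K804R cells.

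The strongest rises were in metallothionein genes. MtnD had 755 and 424 counts in K804R cells and 0 in both control libraries, at least 204.9-fold higher with the floor of 3 counts per library. MtnE had 334 and 129 counts in K804R cells and 0 in both control libraries, at least 77.6-fold higher. MtnB had 316 and 57 counts in K804R cells, against 1 and 0 counts in control cells, a ratio of 397 with a counting interval of 70.9 to 15730 (95%, counting error only). All 3 genes were nearly silent without the recombinant plasmids, since BRM-depleted cells had 0 counts of each.

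MtnA, the most abundant of the family, was at 7429 and 5239 CPM in K804R cells, 6763 and 10170 CPM in WT cells, 214 and 195 CPM in BRM-depleted cells and 188 and 224 CPM in control cells. Its rise over control was 4.94 ± 0.34 (log2, SE, edgeR adjusted p = 0.00033), while K804R and WT libraries overlapped, with a difference of -0.42 (edgeR adjusted p = 0.488). MtnC was at 0 counts in all libraries except 1 count in WT replicate 1. Of the 22 tested genes for metallothioneins and copper or zinc transport, 11 rose and 0 fell, against 6.34% and 4.15% of all genes. In WT cells 12 of the 22 rose, where 10.9% of all genes rose and 7.24% fell. The stable members were MtnA, MtnB, MtnD, MtnE and ZnT77C.

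Transporter genes of both metals rose too, ZnT77C, Zip99C and ATP7 by smaller amounts. The paper's supplement left some genes that it describes as directly upregulated by copper sulfate out of its list of BRM responsive genes. MtnA stayed on that list, among the ATPase-independent rises. No gene was removed here. ZnT77C, of the zinc-exporting ZnT family, stood at 25.5 and 41.8 CPM in K804R cells, 30.6 and 43.2 CPM in WT cells and 8.23 and 7.19 CPM in control cells, a rise of 2.11 (log2, edgeR adjusted p = 0.00476). Zip99C, of the ZIP family, stood at 522 and 828 CPM in K804R cells against 309 and 272 CPM in control cells, a rise of 1.22 (edgeR adjusted p = 0.0141) that was lost without K804R replicate 2, control replicate 1 or control replicate 2, at adjusted p of 0.0565, 0.0828 and 0.114. ATP7, the copper-exporting ATPase, stood at 117 and 125 CPM in K804R cells against 56 and 65.9 CPM in control cells. Its rise of 0.99 (edgeR adjusted p = 0.0179) was lost without any 1 of the 4 libraries (adjusted p of 0.0581 to 0.143). One transporter, ZnT35C, was called above control cells, where it was near 0, and was far lower than in WT cells. ZnT35C had 2.70 and 3.48 CPM in K804R cells, 16.7 and 27.0 CPM in WT cells, and 0 and 0.122 CPM in control cells. Its K804R minus WT difference was -2.83 (edgeR adjusted p = 0.0127) and passed without either WT library but not without K804R replicate 1 (0.103) or 2 (0.0568).

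**Figure D2:**
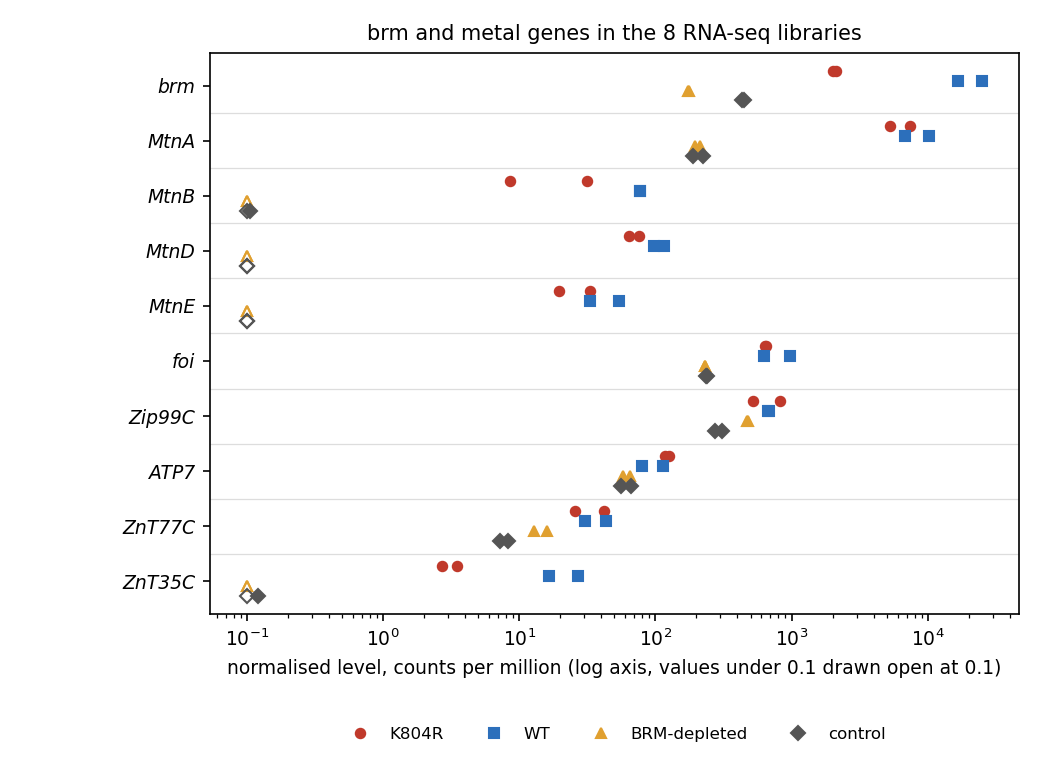
Level in CPM (x axis, log scale) of brm, 4 metallothionein genes and 5 metal transporter genes in each of the 8 libraries, 1 row per gene, with 1 symbol per library and colours and shapes for K804R, WT, BRM-depleted and control cells, and values under 0.1 drawn open at 0.1. MtnB, MtnD and MtnE have counts in both recombinant lines and are at or near 0 in the other 2 groups, MtnA is measured in all 8 libraries and is higher in the recombinant lines, and brm differs between all 4 groups.

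Genes of detoxification formed the second large block. Of 27 tested glutathione S-transferases, which conjugate glutathione to electrophiles, 14 rose and 0 fell, against 6.34% and 4.15% of all genes. Their median log2 difference was 1.34, against 0.01 over all genes. GstD5 stood at 609 and 1281 CPM in K804R cells, 434 and 539 CPM in WT cells, 58.5 and 54.2 CPM in BRM-depleted cells and 50.9 and 37.5 CPM in control cells. The K804R and control libraries lay far apart, at 4.42 ± 0.38 (log2, SE, edgeR adjusted p = 0.000611). GstD7 stood at 145 and 185 CPM in K804R cells, 59.2 and 54.3 CPM in WT cells and 12.7 and 9.38 CPM in control cells. GstD7 was above both, by 3.90 over control (edgeR adjusted p = 0.000189) and by 1.54 over WT cells (edgeR adjusted p = 0.00516).

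GstD2, of the same gene cluster, lay below WT cells. It was at 2.00 and 3.18 CPM in K804R cells, 13.9 and 16.1 CPM in WT cells and 2.22 and 2.68 CPM in control cells, so that K804R and control libraries overlapped. The K804R minus WT difference was -2.56 (edgeR adjusted p = 0.00593). GstD2 was chosen after its values were seen. The stable members were GstD3, GstD5, GstD6, GstD7 and GstE9. The GstD genes are a cluster of related genes. How alike their sequences are, and how reads were assigned among them, was not examined, so values of single genes are less certain.

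Cytochrome P450 genes, which encode haem enzymes that oxidise foreign and endogenous lipophilic compounds, had 17 rises and 1 fall among 47 tested, where 6.34% of all genes rose and 4.15% fell. Cyp12c1, a mitochondrial P450, stood at 53.3 and 50.6 CPM in K804R cells, 39.1 and 29.1 CPM in WT cells and 5.17 and 5.36 CPM in control cells, a rise of 3.30 ± 0.27 (log2, SE, edgeR adjusted p = 0.000489). Cyp4g1, which in flies makes cuticular hydrocarbons in oenocytes, stood at 23.6 and 18.2 CPM in K804R cells, 24.2 and 13.8 CPM in WT cells, and 1.79 and 2.19 CPM in control cells. Its rise was 3.39 (edgeR adjusted p = 0.00139) and its K804R and WT libraries overlapped. The stable rises were Cyp12c1, Cyp4g1, Cyp6a20, Cyp6a22 and Cyp6a23.

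Between the recombinant lines 387 genes differed, or 4.74% of those tested, with 2.23% higher and 2.51% lower in K804R cells. The members of the P450 list that differed were all lower in K804R cells, 6 of 47. Cyp28a5 was at 4.40 and 5.0 CPM in K804R cells, 74.5 and 79.3 CPM in WT cells and 0.95 and 0.609 CPM in control cells. This placed K804R cells between the others, 2.54 above control (log2, edgeR adjusted p = 0.00615; 0.0563 without control replicate 2) and -4.04 against WT cells (edgeR adjusted p = 0.000931). Cyp6a20 stood at 91.9 and 158 CPM in K804R cells, 371 and 397 CPM in WT cells and 38.6 and 29.5 CPM in control cells, again between them, with a K804R minus WT difference of -1.62 (edgeR adjusted p = 0.012).

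UDP-glycosyltransferases, which attach sugars to small lipophilic molecules, had 5 rises and 2 falls among 15 tested. Of all genes 6.34% rose and 4.15% fell. Ugt37D1 stood at 19.6 and 39.7 CPM in K804R cells, 59.5 and 80.9 CPM in WT cells and 1.58 CPM in each control library, a rise of 4.20 ± 0.43 (log2, SE, edgeR adjusted p = 0.00121). Ugt36D1 had 2 counts in each K804R library, against 40 and 36 counts in control cells (edgeR adjusted p = 0.00316). The rises of Ugt37D1, Ugt301D1, Ugt302C1 and Ugt35C1 and the fall of Ugt36D1 were stable.

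Stress programmes other than metal and detoxification had few stable calls in K804R cells. Among 20 heat shock protein genes only the small chaperone gene Hsp26 rose, by 2.00 (log2, edgeR adjusted p = 0.0223; lost without K804R replicate 1 at 0.105 and without control replicate 1 or 2 at 0.146 and 0.108). In WT cells 10 of the 20 rose. Of all genes 6.34% rose and 4.15% fell in K804R cells, and 10.9% and 7.24% in WT cells. The median log2 difference of the 20 from control was 0.86 in K804R cells and 1.35 in WT cells. Directly between the lines 1 of the 20 was lower in K804R cells and 0 were higher. None of 33 proteasome subunit genes was called in K804R cells, with a median log2 difference of 0.38, whereas 11 rose in WT cells with a median of 0.77. Directly between the lines, 3 of the 33 were lower in K804R cells, Prosbeta4, Rpn9 and Rpt5, where 2.51% of all genes were. Without K804R replicate 1 none of the 3 was called (edgeR adjusted p of 0.154, 0.0764 and 0.163). Of 25 antioxidant genes 6 rose, cnc, Cat, Gclc, Men, ref(2)P and MRP, and TrxT fell, against 6.34% and 4.15% of all genes. None of these antioxidant calls was stable.

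The gene for the autophagy receptor ref(2)P, the fly p62, was lower in K804R than in WT cells. It was at 433 and 468 CPM in K804R cells, 1080 and 1629 CPM in WT cells, and 248 and 234 CPM in control cells, with no overlap between the 3 groups and a K804R minus WT difference of -1.59 (log2, edgeR adjusted p = 0.00724; 0.0634 without K804R replicate 1). Its rise of 0.90 over control (edgeR adjusted p = 0.0328) was lost without any 1 of the 4 libraries, at adjusted p of 0.0895 to 0.199.

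Among the other large rises, Npc2a, which encodes a sterol-binding protein of the lysosomal lumen, stood at 120 and 86.9 CPM in K804R cells, 48.6 and 118 CPM in WT cells, 3.38 and 3.92 CPM in BRM-depleted cells and 2.75 and 5.85 CPM in control cells. All 4 libraries of the recombinant lines lay above all others, and the rise in K804R cells was 4.61 ± 0.51 (log2, SE, edgeR adjusted p = 0.0017). The gene of the transcription factor grainy head, grh, which controls epidermal genes, stood at 93.3 and 101 CPM in K804R cells, 27.5 and 33.6 CPM in WT cells, 14.6 and 19.6 CPM in BRM-depleted cells, and 12.3 and 15.6 CPM in control cells. It was 2.80 above control (edgeR adjusted p = 0.00041) and 1.67 above WT cells (edgeR adjusted p = 0.00577).

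The summed level of the 6 epidermis markers was 108 and 111 CPM in K804R cells, where grh makes up most of it. It was 48.7 and 61.3 CPM in WT cells and 18.5 and 20.5 CPM in control cells. Of the 4 tested, grh and Cpr97Ea rose, where 6.34% of all genes did. Cpr49Ac and Ddc were not called (log2 differences -0.47 and -0.05). The summed neuron markers were at 44.4 and 56.5 CPM in K804R cells, 79.4 and 71.7 CPM in WT cells and 98.4 and 89.1 CPM in control cells. VGlut was at 0 in all 8 libraries. Germline markers summed to 72.4 and 80.9 CPM in K804R cells and 134 and 113 CPM in control cells. Gut markers summed to 187 and 235 CPM against 170 and 174 CPM. Sums were lower for muscle (5.30 and 8.03 against 9.29 and 11.1 CPM) and fat body (2.60 and 2.27 against 6.5 and 6.7 CPM). Of 9 tested cuticle protein genes 4 rose and 0 fell, where 6.34% of all genes rose. Cpr11A, Cpr65Au and Cpr97Ea lost their calls when a library was left out. TwdlE was stable, at 5.79 and 5.30 CPM in K804R cells, 1.91 and 1.71 CPM in WT cells and 0.528 and 0.609 CPM in control cells, a rise of 3.26 (log2, edgeR adjusted p = 0.0027). Whether other cell types had a part in these rises was not tested.

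Boot and Tep1, which had the largest falls among genes with at least 50 counts in each control library, fell in WT cells too. Boot was at 2.90 and 1.82 CPM in K804R cells, 0.476 and 0.142 CPM in WT cells, 71.0 and 69.2 CPM in BRM-depleted cells and 79.6 and 72.2 CPM in control cells, a difference of -4.96 ± 0.28 (log2, SE, edgeR adjusted p = 0.000189). Tep1, a thioester-containing protein of the complement-like family, was at 5.60 and 8.18 CPM in K804R cells, 9.53 and 8.96 CPM in WT cells, 128 CPM in each BRM-depleted library and 186 and 129 CPM in control cells, a difference of -4.54 (edgeR adjusted p = 0.000189). Both genes were high in all 4 libraries without a recombinant plasmid and low in all 4 libraries with a recombinant plasmid.

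In some of the falls K804R cells lay below WT cells too. CG42394 was at 17.4 and 11.2 CPM in K804R cells, 74.1 and 62.4 CPM in WT cells and 234 and 177 CPM in control cells, with K804R minus control and K804R minus WT differences of -3.83 and -2.24 (log2, edgeR adjusted p = 0.0032 for the comparison with WT). The gene listed as FBgn0261362, which has no symbol in the annotation used, was at 17.8 and 7.72 CPM in K804R cells, 59.0 and 51.6 CPM in WT cells and 261 and 290 CPM in control cells (K804R minus WT -2.09, edgeR adjusted p = 0.0113). Among genes with at least 50 counts in each library of the higher group and no overlap, the 12 largest falls were stable: Boot, Tep1, sano, FBgn0261362, CG34417, ham, Ir41a, CG42394, CG31601, CG12206, Hml and CG43179. Of the 12 largest rises under the same minimum, MtnD, MtnE, MtnB, CG16762, FBgn0263508, CG2772, MtnA, Npc2a, GstD5 and Ugt37D1 were stable. CG7342 was lost without control replicate 2 (adjusted p = 0.0622) and Cyp4d20 without control replicate 1 (0.0681).

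Several hemocyte genes differed between the recombinant lines. Of 27 tested genes of hemocyte identity and phagocytosis, 3 rose and 3 fell in K804R cells, whereas 12 rose and 3 fell in WT cells. Over all genes 6.34% rose and 4.15% fell in K804R cells, and 10.9% and 7.24% in WT cells. In the direct comparison 8 of the 27 were lower in K804R than in WT cells and 0 were higher, against 2.51% and 2.23% of all genes. NimC1, a Nimrod receptor of phagocytic hemocytes, was at 7.0 and 5.60 CPM in K804R cells, 376 and 204 CPM in WT cells, 1.18 and 2.24 CPM in BRM-depleted cells and 2.75 and 1.83 CPM in control cells. WT cells stood alone, with a K804R minus WT difference of -5.51 (log2, edgeR adjusted p = 0.000931), and K804R cells were not called against control (1.46; edgeR adjusted p = 0.0689). He, encoding the surface protein hemese, was at 8.19 and 13.2 CPM in K804R cells, 310 and 165 CPM in WT cells and 30.9 and 21.9 CPM in control cells. The K804R minus WT difference of He was -4.50 (edgeR adjusted p = 0.00146). NimB1, NimB2, NimB3, NimB5, Sr-CI and Pxn were the other members lower than in WT cells. NimB2 was lost without K804R replicate 2 (0.127) or WT replicate 2 (0.0784), and Sr-CI without K804R replicate 1 (0.241) or 2 (0.102). These hemocyte genes were chosen by their comparison with WT cells after the values were seen.

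Within the same list, NimC4, the receptor Simu that recognises apoptotic cells, was higher in K804R cells. It stood at 310 and 216 CPM in K804R cells, 156 and 144 CPM in WT cells, 33.2 and 27.3 CPM in BRM-depleted cells, and 31.0 and 42 CPM in control cells, a stable rise of 2.85 ± 0.23 (log2, SE, edgeR adjusted p = 0.000507). Hml, the gene of the clotting protein hemolectin that marks plasmatocytes, was at 97.7 and 29.7 CPM in K804R cells, 254 and 223 CPM in WT cells, 737 and 993 CPM in BRM-depleted cells and 828 and 810 CPM in control cells. Hml fell by 3.68 ± 0.49 on the log2 scale in K804R cells (edgeR adjusted p = 0.0035), and its K804R minus WT difference of -1.90 was not called (edgeR adjusted p = 0.064).

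Of 31 receptor tyrosine kinase and Ras pathway genes, 5 rose and 1 fell, or 19.4%, where 10.5% of all genes were called. Pvf1, a ligand of the PDGF and VEGF receptor Pvr, stood at 176 and 216 CPM in K804R cells, 211 and 143 CPM in WT cells and 66.6 and 61.9 CPM in control cells, a rise of 1.61 (log2, edgeR adjusted p = 0.00286). The gene of kek1, a transmembrane inhibitor of the EGF receptor, stood at 282 and 283 CPM in K804R cells, 354 and 364 CPM in WT cells and 139 and 143 CPM in control cells, a rise of 1.00 (edgeR adjusted p = 0.00317). Both rises were stable.

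The gene of Sprouty, sty, a feedback inhibitor of receptor tyrosine kinase signalling, was at 750 and 552 CPM in K804R cells, 1374 and 907 CPM in WT cells, 1451 and 1457 CPM in BRM-depleted cells and 1931 and 1756 CPM in control cells. It fell by 1.5 on the log2 scale in K804R cells (edgeR adjusted p = 0.00979; lost without K804R replicate 2 at 0.0745 and control replicate 1 at 0.0668), and it was not called in WT cells or between the lines. Among 19 Polycomb group genes Psc, a subunit of Polycomb repressive complex 1, fell and was stable, at 57.3 and 44.4 CPM in K804R cells, 33.9 and 40.4 CPM in WT cells, 88.5 and 88.0 CPM in BRM-depleted cells and 107 and 108 CPM in control cells (log2 difference -1.08, edgeR adjusted p = 0.00641). In WT cells 5 of the 19 fell. None of 19 Trithorax group and Mediator kinase module genes was called in K804R cells, against 6 falls in WT cells. Of all genes 4.15% fell in K804R cells and 7.24% in WT cells. Directly between the lines 1 gene of each list was higher in K804R cells and 0 were lower. No call was made in K804R cells among the tested genes of other chromatin remodelers (20), cytoplasmic ribosomal proteins (80), mitochondrial ribosomal proteins (70), the insulin and TOR pathway (17), the Hippo pathway (15), JAK/STAT signalling (11), the circadian clock (10) or dosage compensation (8). A gene that was not called is not shown to be unchanged.

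Glycolysis and antimicrobial peptide genes had calls that ended when a library was left out. Of 13 glycolysis genes Gapdh2, Gpdh1, Hex-A and Ldh rose and none was stable. Over all genes 6.34% rose in K804R cells and 10.9% in WT cells. Gapdh2 stood at 955 and 903 CPM in K804R cells, 474 and 784 CPM in WT cells, 360 and 303 CPM in BRM-depleted cells, and 332 and 427 CPM in control cells. Its rise of 1.29 (log2, edgeR adjusted p = 0.0191) was lost without any 1 of the 4 libraries (adjusted p of 0.0697 to 0.155). Of 8 antimicrobial peptide genes AttB, CecB and DptB rose in K804R cells and 0 rose in WT cells, but the K804R minus WT difference was not called for any of the 3 (edgeR adjusted p of 0.22 to 0.364), and AttB and CecB were lost without any 1 of the 4 libraries.

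**Figure D3:**
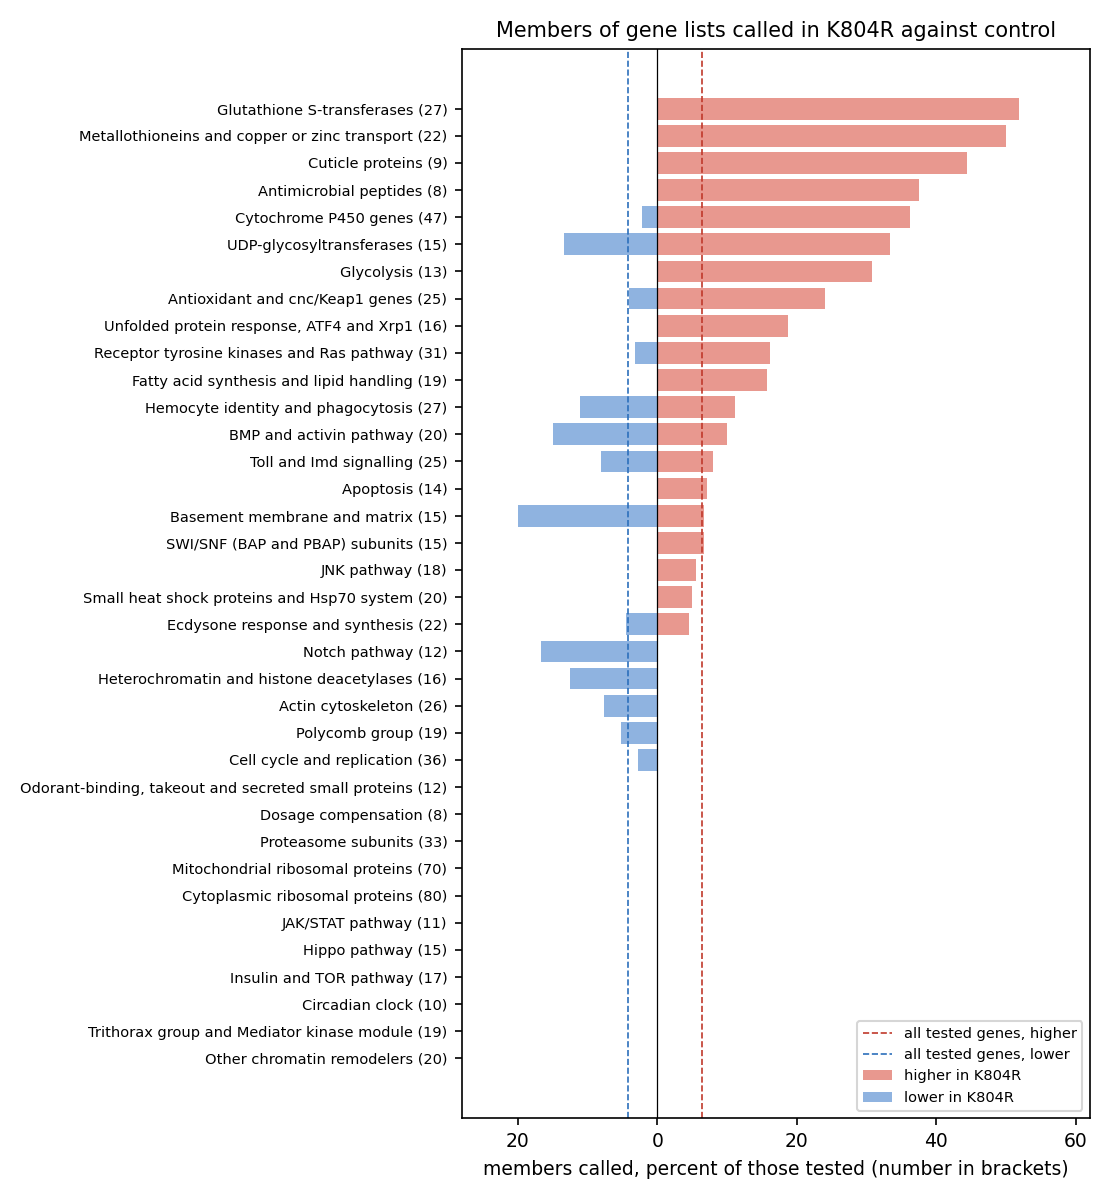
Percent of tested members called higher (bars to the right of 0) and lower (bars to the left) in K804R against control cells, 1 row per gene list with at least 8 tested members, and dashed lines at 6.34% (higher) and 4.15% (lower) for all genes tested. The longest bars to the right are those of glutathione S-transferases (14 of 27), metallothioneins and metal transport (11 of 22) and cuticle proteins (4 of 9).

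Genes that changed in K804R cells and not in WT cells were counted next. Of the 857 genes called in K804R cells, 274 were not called in WT cells against the same control libraries, 157 higher and 117 lower, or 3.36% of the genes tested. For 174 of these the unadjusted p in WT cells was also at least 0.05. A gene called in one line and not in the other is not shown to differ between them, so the lines were also compared directly. In 92 of the 274 genes, 1.13% of those tested, K804R cells differed in the same direction from WT cells, with 60 rises and 32 falls. For the other 182 genes, 97 higher and 85 lower, the difference between the lines was not called. Of these 182, 4 were stable, all lower in K804R cells: Cipc, RhoGEF3, ry and sha.

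Of the 92 genes, 28 of 60 rises and 13 of 32 falls were stable against control, and 20 and 6 of them were also called against WT cells in each of the 4 fits. No gene at all was called in BRM-depleted against control cells by edgeR's quasi-likelihood test, where 378 genes, 4.63%, had an unadjusted p under 0.05. Even brm, the target of the dsRNA, was not called, at -1.32 (log2, edgeR adjusted p = 0.468) with no overlap of libraries. The absence of calls thus does not show that depletion changed nothing. The paper lists some of its ATPase-independent genes, brm among them, as changed in BRM-depleted cells. On the same genes limma-voom called 0 and DESeq2 called 14 higher and 6 lower, and without a filter on low counts edgeR called 41 higher and 25 lower of 12246.

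The largest differences from WT cells included genes that were nearly silent elsewhere. CG16762 was at 30.8 and 14.5 CPM in K804R cells, 0.357 and 0 CPM in WT cells, 0.441 and 1.26 CPM in BRM-depleted cells and 0.422 and 0.853 CPM in control cells, with differences of 5.15 ± 0.66 from control (log2, SE, edgeR adjusted p = 0.00301) and 6.77 from WT cells (edgeR adjusted p = 0.00464). The gene listed as FBgn0263508 was at 44.4 and 76.5 CPM in K804R cells, 2.14 and 0.569 CPM in WT cells, 1.62 and 2.10 CPM in BRM-depleted cells and 1.69 and 1.83 CPM in control cells (5.09 over control, edgeR adjusted p = 0.000823). The gene sunn, needed for sister chromatid cohesion in meiosis, was at 18.3 and 27.7 CPM in K804R cells, 0.357 and 0.853 CPM in WT cells, 1.76 and 3.22 CPM in BRM-depleted cells and 1.90 and 2.07 CPM in control cells (3.52 over control, edgeR adjusted p = 0.00196). In all 3 genes the K804R libraries stood apart from the other 6. Over all genes, K804R libraries lay above both WT libraries in 20.6% and below both in 21.0%.

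The side-V gene, which encodes an immunoglobulin-type membrane protein of the Sidestep family, was at 33.4 and 39.5 CPM in K804R cells, 2.62 and 3.70 CPM in WT cells, 1.32 and 1.54 CPM in BRM-depleted cells, and 2.64 and 2.44 CPM in control cells. It rose by 3.83 ± 0.27 over control (log2, SE, edgeR adjusted p = 0.000333) and stood 3.53 above WT cells (edgeR adjusted p = 0.000931). CG5568 (3L:5871501-5873518 in Release 6) and CG18586 (3L:5873311-5875466), which overlap on the plus strand, both rose. CG5568 was at 32.2 and 31.5 CPM in K804R cells, 2.02 and 1.42 CPM in WT cells and 2.22 and 1.58 CPM in control cells. CG18586 was at 20.5 and 23.5 CPM in K804R cells, 0.715 and 0.996 CPM in WT cells and 1.58 and 1.34 CPM in control cells. How reads in the overlap were assigned is not stated in the sources used here, so these are not taken as 2 independent rises.

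A pair of hairpin RNA genes rose as well. Hairpin RNAs are long inverted-repeat transcripts from which flies cut endogenous small interfering RNAs. The name comes from the annotation. Within hpRNA:CR32207 no exact inverted run of at least 20 bases was found, and inexact ones were not searched for. hpRNA:CR33940 was at 29.4 and 28.6 CPM in K804R cells, 0.834 and 1.85 CPM in WT cells, 3.23 and 3.92 CPM in BRM-depleted cells and 2.75 and 3.90 CPM in control cells (3.13 over control, log2). hpRNA:CR32207 was at 44.9 and 35.6 CPM in K804R cells, 2.02 and 3.41 CPM in WT cells, 6.17 and 4.34 CPM in BRM-depleted cells and 4.22 and 5.24 CPM in control cells (3.09 over control). Both were stable and were above every library of the other groups. They lie 8024 bases apart on the same strand of 3L and share sequence. Of the 1392 bases of hpRNA:CR32207, 33.8% lay in exact runs of at least 20 bases that also occur in hpRNA:CR33940. How reads from those runs were assigned is not stated, so the rises of this pair may not be independent. The longest shared run, at 3L:19478640-19478720 on the minus strand in Release 6, has 81 bases and is printed, in lower case throughout, to show how alike they are.
hpRNA:CR32207: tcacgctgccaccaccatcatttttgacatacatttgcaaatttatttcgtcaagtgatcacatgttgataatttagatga

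**Figure D4:**
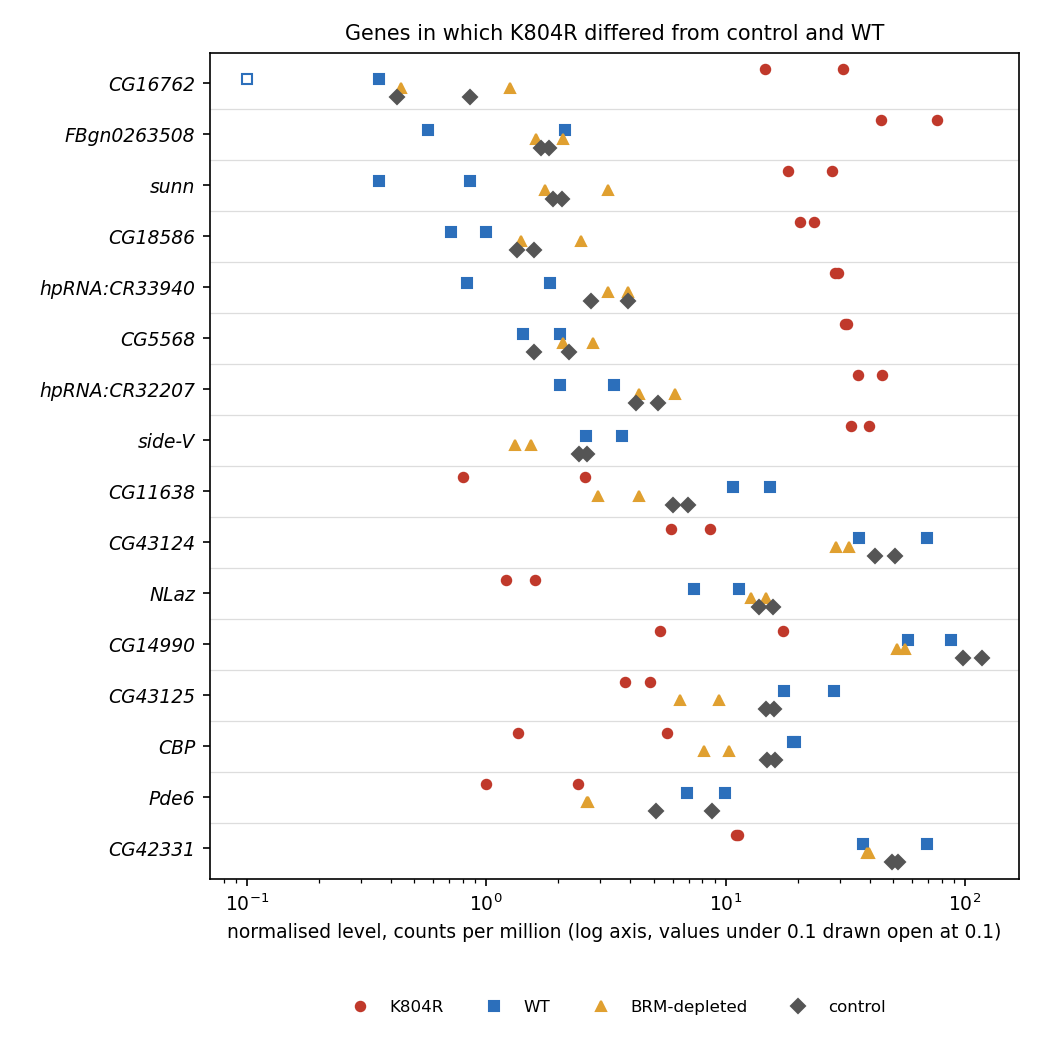
Level in CPM (x axis, log scale) in each of the 8 libraries, for the 8 genes highest and the 8 genes lowest in K804R relative to WT cells among those that also differ from control cells and have at least 50 counts in each library of the highest group, 1 row per gene, with 1 symbol per library and colours and shapes for K804R, WT, BRM-depleted and control cells, and values under 0.1 drawn open at 0.1. In CG16762, sunn and side-V both K804R symbols lie above the other 6, and in NLaz and CG42331 both lie below them.

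Other genes of this class, picked from the 92 after their values were seen, reached higher levels. Erasp was at 238 and 243 CPM in K804R cells, 59.0 and 54.3 CPM in WT cells, 51.5 and 46.8 CPM in BRM-depleted cells and 40.2 and 43.9 CPM in control cells. It rose by 2.52 ± 0.14 (log2, SE, edgeR adjusted p = 0.000189) and was 2.09 above WT cells (edgeR adjusted p = 0.000931). Vago, a secreted factor known from antiviral responses in flies, was at 89.0 and 66.8 CPM in K804R cells, 26.6 and 21.9 CPM in WT cells, 22.9 and 18.6 CPM in BRM-depleted cells and 14.9 and 16.1 CPM in control cells, a rise of 2.33 (edgeR adjusted p = 0.000838). The esterase gene alpha-Est1 was at 118 and 110 CPM in K804R cells, 31.8 and 22.9 CPM in WT cells and 23 and 25.8 CPM in control cells, a rise of 2.22 (edgeR adjusted p = 0.000611).

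Further stable rises, picked in the same way, covered enzymes, kinases and membrane traffic. PKD, protein kinase D, was at 17.8 and 17.3 CPM in K804R cells, 1.91 and 2.42 CPM in WT cells and 2.64 and 3.78 CPM in control cells. The gene comt, which encodes the fusion ATPase NSF, was at 8.29 and 5.91 CPM in K804R cells, 0.238 and 0.569 CPM in WT cells and 0.317 and 0.609 CPM in control cells. SP2353 had 110 and 39 counts in K804R cells, 1 count in each WT library, 0 in BRM-depleted cells and 2 and 1 counts in control cells, a ratio of 52.9 over control with a counting interval of 17.8 to 259 (95%, counting error only). In all 3 the K804R libraries lay above every other library.

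Jheh3, a juvenile hormone epoxide hydrolase, was at 22.0 and 28.9 CPM in K804R cells, 6.31 and 6.26 CPM in WT cells, 14.1 and 11.8 CPM in BRM-depleted cells and 6.02 and 6.34 CPM in control cells, a stable rise of 2.04 (log2, edgeR adjusted p = 0.00196). LpR2, a lipophorin receptor that takes up lipid, was at 389 and 278 CPM in K804R cells, 157 and 147 CPM in WT cells, 125 and 124 CPM in BRM-depleted cells and 141 and 124 CPM in control cells. Its rise of 1.33 (edgeR adjusted p = 0.00362) was lost without control replicate 2 at 0.0505, and its difference from WT cells without K804R replicate 1 at 0.0539. The genes of the 2 glutamine synthetases, also picked after their values were seen, moved in opposite directions. Gs1, the mitochondrial enzyme, was at 56.9 and 62.4 CPM in K804R cells, 8.93 and 16.2 CPM in WT cells and 10.8 and 18.3 CPM in control cells, a rise of 2.04 (edgeR adjusted p = 0.00768; 0.0569 without control replicate 1). Gs2, the cytoplasmic enzyme, was at 2.10 and 1.21 CPM in K804R cells, 5.95 and 10.1 CPM in WT cells and 6.02 and 8.41 CPM in control cells, and fell by 2.07 on the log2 scale (edgeR adjusted p = 0.0196; lost without K804R replicate 2 at 0.109, control replicate 1 at 0.0569 and control replicate 2 at 0.105).

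The falls that WT cells did not share included that of a lipocalin gene. NLaz, Neural Lazarillo, a secreted lipid-binding lipocalin, was at 1.60 and 1.21 CPM in K804R cells, 7.38 and 11.4 CPM in WT cells, 12.8 and 14.7 CPM in BRM-depleted cells and 13.7 and 15.7 CPM in control cells. It fell by 3.35 ± 0.33 on the log2 scale (SE, edgeR adjusted p = 0.00105) and its K804R minus WT difference was -2.69 (edgeR adjusted p = 0.00577). CG43124 was at 8.59 and 5.91 CPM in K804R cells, 69.7 and 36.1 CPM in WT cells, 29.0 and 32.6 CPM in BRM-depleted cells and 51.1 and 42.2 CPM in control cells, a fall of 2.67 on the log2 scale (edgeR adjusted p = 0.00304). CG42331 was at 11.3 and 11.1 CPM in K804R cells, 37.5 and 69.3 CPM in WT cells and 49.3 and 52.3 CPM in control cells, a fall of 2.18 on the log2 scale (edgeR adjusted p = 0.00306). These 3 and CG14990 were stable, and in each the K804R libraries lay below the other 6.

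The remaining genes of the 8 largest falls relative to WT cells, taken among genes with at least 50 counts in each library of the highest group, lost their calls when a library was left out. CG11638 (edgeR adjusted p = 0.041) was lost without K804R replicate 1 (0.149), control replicate 1 (0.136) or control replicate 2 (0.147). CG43125, which lies 248 bases from CG43124 on the same strand, was lost without the same libraries at 0.0731, 0.0539 and 0.0581, and Pde6 at 0.145, 0.199 and 0.0524. CBP was lost without control replicate 1 or 2 (0.114 and 0.112).

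Also lower in K804R cells than in the other groups was Shaw, a voltage-gated potassium channel gene which, like Prip, was picked after its values were seen, with 3 and 4 counts in K804R cells, 56 and 43 counts in WT cells, 35 and 47 counts in BRM-depleted cells and 43 and 47 counts in control cells (log2 difference from control -3.54, edgeR adjusted p = 0.00259). Prip, an aquaporin, was at 5.50 and 4.70 CPM in K804R cells, 16.2 and 15.1 CPM in WT cells, 19.7 and 17.6 CPM in BRM-depleted cells, and 21.5 and 21.0 CPM in control cells (-2.05, edgeR adjusted p = 0.00118). The actin filament elongation factor gene ena was at 188 and 197 CPM in K804R cells, 457 and 367 CPM in WT cells, 455 and 487 CPM in BRM-depleted cells and 416 and 420 CPM in control cells (-1.12, edgeR adjusted p = 0.00452). All 3 were stable against control, with no overlap between K804R and any other group. The K804R minus WT difference of ena, -1.10 (edgeR adjusted p = 0.00975), was lost without K804R replicate 1 (0.0743) or 2 (0.0531).

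Genes called in opposite directions in the 2 lines numbered 15, or 0.184% of those tested, 3 higher and 12 lower in K804R cells. CG10738 was at 2.50 and 1.97 CPM in K804R cells, 31.9 and 32.9 CPM in WT cells, 12.6 and 13.0 CPM in BRM-depleted cells, and 13.1 and 10.5 CPM in control cells. Control cells lay between the lines, with K804R minus control at -2.37 ± 0.25 (log2, SE, edgeR adjusted p = 0.00133) and WT minus control at 1.46. CG4927 was at 44.4 and 35.4 CPM in K804R cells, 3.21 and 2.27 CPM in WT cells, 13.2 and 11.2 CPM in BRM-depleted cells and 10.8 and 13.7 CPM in control cells. It showed the reverse order, with 1.71 over control in K804R cells (edgeR adjusted p = 0.00425) and -2.13 in WT cells. These were the only 2 of the 15 whose call against control in K804R cells was stable.

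Of the other 13, Cep164, a gene named for a protein of the centriole's distal appendages, was at 31.8 and 23.2 CPM in K804R cells, 1.07 and 1.85 CPM in WT cells and 11.8 and 13.9 CPM in control cells. K804R cells were 4.25 above WT cells (log2, edgeR adjusted p = 0.000931) and 1.1 above control, a call lost without any 1 of the 4 libraries (0.0523 to 0.207). Pxn, the matrix peroxidase peroxidasin made by hemocytes, was at 92.5 and 90.0 CPM in K804R cells, 414 and 432 CPM in WT cells, 140 and 142 CPM in BRM-depleted cells and 122 and 184 CPM in control cells. The K804R minus WT difference of Pxn was -2.21, while its difference from control of -0.74 (edgeR adjusted p = 0.048) was lost without K804R replicate 1 (0.152), K804R replicate 2 (0.196) or control replicate 2 (0.239).

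Pgant9, a glycosyltransferase that starts mucin-type O-glycans, was at 1.5 and 2.42 CPM in K804R cells, 28.7 and 27.6 CPM in WT cells and 6.97 and 5.97 CPM in control cells. It fell by 1.76 on the log2 scale (edgeR adjusted p = 0.0108; 0.0637 without K804R replicate 1 and 0.074 without control replicate 1). Gr64f, CR33629 and CG33630 had 0 counts in K804R cells, against 5 and 7, 8 and 5, and 11 and 7 counts in control cells. With the floor of 3 counts per library they were at least 1.83-, 1.93- and 2.67-fold lower.

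**Figure D5:**
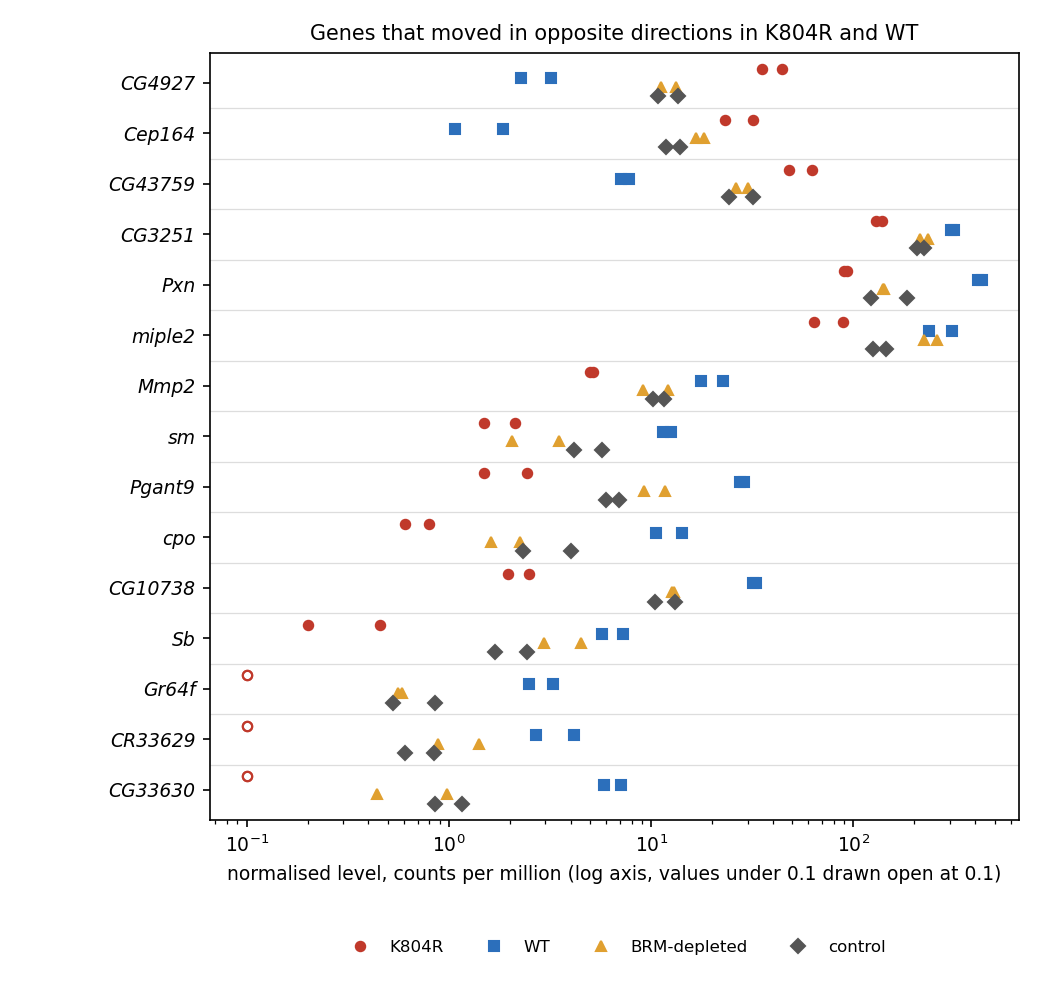
Level in CPM (x axis, log scale) of the 15 genes called against control in opposite directions in K804R and WT cells in each of the 8 libraries, 1 row per gene, with 1 symbol per library and colours and shapes for K804R, WT, BRM-depleted and control cells, and values under 0.1 drawn open at 0.1. In CG10738 and Pgant9 control cells lie between K804R cells (low) and WT cells (high), and in CG4927 and Cep164 the order is reversed.

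The positions of the 92 genes were examined. Some lay within 10000 bases of another gene of the same set and direction. The neighbouring pairs were on the same strand, and included CG18557 with CG3117 (191 bases apart), LpR2 with LpR1 (882 bases apart) and CG13631 with CG42331 (1247 bases apart).

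BRM binding was available from ChIP-seq with an antibody against endogenous BRM in cells without the K804R plasmid, as the ratio of immunoprecipitated to input signal over each gene. The share of genes with a mean ratio of at least 1.1 was 19.4% among rises and 20.9% among falls in K804R cells, against 9.33% of all genes tested. Among the 92 genes it was 24.6% for the rises and 25.0% for the falls. In replicate 1 alone the share among rises was 40.2%, against 22.4% of all genes, and in replicate 2 alone 17.8% against 11.7%. The ratio describes where BRM lay in other cells and does not say that the K804R protein bound these genes.

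Promoter sequence, 250 bases before to 50 bases after each start, was searched on both strands. The metal response core TGCNCNC was in 39.0% of promoters of rises and 40.3% of falls, against 34.0% of the tested genes and 33.8% of all promoters in the table. It was in 7 of the 11 metal genes that rose, and in 26 of 53 rises and 15 of 31 falls among the 92 genes. In the 250 bases before the start alone the core was in 25 of those 53 rises and 9 of those 31 falls. There it was in 27.8% of the tested genes. The antioxidant response core TGACNNNGC was in 7.39% of promoters of rises and 10.1% of falls, against 8.65% of tested genes, and in 1 of the 14 glutathione S-transferases that rose. A match says only that these letters stand in the window.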

How the data were processed

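Poly(A) RNA from 8 S2 cell libraries was sequenced by the authors, aligned with TopHat2, and deposited as counts of reads per gene made with HTSeq from a strand-specific kit; no row of the table is a total or unassigned class. BRM ChIP-seq was deposited by the authors as coverage signal per gene for IP and Input. Per the submitters' processing notes TopHat2, Bowtie and dm3 were used. The methods name BDGP6 for ChIP-seq and BDGP6 (Dm3) for RNA-seq. Positions and sequences were therefore taken only from the Ensembl annotation BDGP6.54, release 115 (genome Release 6). Symbols were found for 95.7% of the RNA-seq IDs.

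The 8 libraries were fitted together in edgeR 4.0.16 (R 4.3.3; TMM, filterByExpr, quasi-likelihood test without robust estimation, Benjamini-Hochberg adjustment over 8165 genes, threshold 0.05), with 4 residual degrees of freedom and a common biological coefficient of variation of 0.192. limma-voom (limma 3.58.1), DESeq2 1.42.0, other scalings, filters and thresholds, replicate number as a block, and fits with 1 library left out were the alternatives. Tested on simulated data for this comparison (8012 genes), the fit recovered 56% of log2 rises of 1, 46% of falls of 1, 100% of rises of 2 and 96% of falls of 2, and called 7 of 7812 unchanged genes. The simulation gave every gene the same coefficient of variation of 0.192 and changed only genes above a minimum mean count. Real spread differs between genes and groups, so recovery may be lower and false calls more frequent in the real data. ChIP ratios used an Input of at least 0.5, and a ratio of at least 1.1 counted as bound, with no test.

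Named genes were brm and the metallothionein genes, the paper's example genes matched by symbol (Cpr49Ac, ph-d and Karl), the 12 largest rises and falls against control, the 8 largest rises and falls against WT cells among genes differing from both (each with at least 50 counts in every library of the highest group), all genes of opposite sign, and up to 5 called members of each of 46 gene and marker lists. Others are said to be chosen after their values were seen. The genes and lists were chosen with earlier results of these data known.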

Additional observations from a re-analysis of the deposited data

Results flagged for a closer look

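The results below were picked out because the K804R minus WT difference was itself called, by edgeR's quasi-likelihood test, while both lines were compared with the same control libraries. Values are log2 differences, K804R minus WT. For brm, which differed by -3.33, the lines carried different plasmids. In all, 92 genes differed from control in K804R cells and in the same direction from WT cells. Among the rises of this kind CG16762 differed by 6.77, FBgn0263508 by 5.41, sunn by 5.25, CG18586 by 4.67, hpRNA:CR33940 by 4.45, CG5568 by 4.18, hpRNA:CR32207 by 3.90 and side-V by 3.53. Among the falls CG11638 differed by -3.03, CG43124 by -2.85, NLaz by -2.69, CG14990 by -2.64, CG43125 by -2.42, CBP by -2.37, Pde6 by -2.35 and CG42331 by -2.25.

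Of the 15 genes called against control in opposite directions, 3 were higher in K804R than in WT cells, by 3.84 for CG4927, 4.25 for Cep164 and 2.89 for CG43759. The other 12 were lower. The difference was -1.20 for CG3251, -2.21 for Pxn, -1.84 for miple2, a heparin-binding growth factor, and -1.98 for the matrix metalloproteinase gene Mmp2. It was -2.74 for sm and -4.08 for cpo, which both encode RNA-binding proteins, -3.87 for Pgant9, -3.83 for CG10738 and -4.34 for Sb, the transmembrane protease Stubble. Gr64f, CR33629 and CG33630 had 0 counts in K804R cells, and their fitted values of -7.52, -7.79 and -8.69 depend on the prior count and are no bounds.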

How the results depend on the processing

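The 857 calls were between 269 and 1251 when 1 library was left out and 316 at an adjusted p under 0.01, with the lone sample of a group assumed to vary like the others. The low end was without control replicate 1, and 396 were called without K804R replicate 2. Genes not called in WT cells numbered 274, and 412 without a filter on low counts, 481 with only the 4 libraries of each contrast, 126 at an adjusted p under 0.01, 174 where WT cells needed an unadjusted p of at least 0.05, and 96 to 600 with 1 library left out. Genes differing from both control and WT cells numbered 92, and 163 without a filter, 38 with only the 4 libraries of each contrast (33 of the 92 among them), 35 at an adjusted p under 0.01, and 45 to 102 with 1 library left out. Other tools kept the counts within 1.5 times, with 834 calls by limma-voom and 1085 by DESeq2, which held 802 and 832 of the 857. The brm rise passed throughout, between 2.19 and 2.27 with 1 library left out. Replicate differences correlated at 0.626 between WT and control cells and at 0.235 between K804R and BRM-depleted cells. In the rest of the 6 pairs of groups they correlated at -0.267 to -0.32, with -0.279 between K804R and control cells. Samples of the same number thus did not deviate together in every pair. Whether samples of different numbers were handled together was not tested. With a replicate block 729 genes were called, 227 of them not in WT cells and 67 differing from both, and brm was at 2.23. The share of rises with a BRM ratio of at least 1.1 was 19.4% on the mean and 40.2% in replicate 1 alone, and metal response cores stood in 39.0% of promoters of rises and 34.3% of their 250 upstream bases alone. The upstream bases are part of the wider window, so their share cannot be larger. Among all tested genes it was 27.8%, against 34.0% in the whole window. The cause of the other shifts was not tested. For the named genes 0 of 2481 values under the other alternatives and 0 of 1254 with 1 library left out changed sign in a gene called before or after, while 149 and 242 lost their call. In genes called in neither, 8 and 21 values crossed 0. With 2 libraries a group, changes near 1 on the log2 scale are often missed.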

Other observations

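Of 20 BMP and activin pathway genes 2 rose and 3 fell, or 25.0%, where 10.5% of all genes were called. The gene sog, an extracellular BMP antagonist, was at 40.4 and 61.0 CPM in K804R cells, 61.2 and 38.4 CPM in WT cells and 15.2 and 17.2 CPM in control cells, a log2 difference of 1.64 (edgeR adjusted p = 0.0125; 0.0734 without K804R replicate 2, 0.098 and 0.0701 without control replicates 1 and 2). The activin-like ligand gene daw was at 31.9 and 12.1 CPM in K804R cells, 21.3 and 20.3 CPM in WT cells and 79.0 and 86.9 CPM in control cells, a difference of -1.89 (edgeR adjusted p = 0.0216; 0.0819 and 0.0853 without control replicates 1 and 2). The Notch receptor gene N was at 280 and 229 CPM in K804R cells, 233 and 221 CPM in WT cells and 420 and 494 CPM in control cells, a difference of -0.84 (edgeR adjusted p = 0.0174; 0.113 without K804R replicate 2, 0.0617 and 0.112 without control replicates 1 and 2).

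The cell death gene rpr, reaper, which was not called in K804R against control cells, was at 56.5 and 64.8 CPM in K804R cells, 23.3 and 17.8 CPM in WT cells and 65.7 and 49.7 CPM in control cells. K804R and control libraries overlapped, and the K804R minus WT difference was 1.56 (edgeR adjusted p = 0.00761). The gene rpr was chosen after its values were seen. Cpr49Ac, ph-d and Karl, which the paper shows as examples, were not called in K804R cells. In WT cells Cpr49Ac rose by 2.07 (log2, edgeR adjusted p = 0.00502) and ph-d differed by -1.14 (edgeR adjusted p = 0.00139). Karl, an ATPase-independent example in the paper, was at 0.34 in K804R cells and 0.33 in WT cells (edgeR adjusted p of 0.56 and 0.51).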
